A study of Mus musculus with 12 samples.

Results

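The S100a genes of mouse chromosome 3 encode small calcium-binding proteins, and 10 of them were followed here among the 45706 genes of the deposited count table. They were S100a1, S100a13, S100a14, S100a16, S100a3, S100a4, S100a5, S100a6, S100a11 and S100a10, in their order along the chromosome, found through the Ensembl identifiers of the table. The set was selected on the measured log2 fold change of Sox1 positive glial progenitors against Baseline, for the rise of this chromosome segment, so the values of that comparison are given as a description and carry no test. In these data the rise was not a property of the whole set. Only S100a10 and S100a11 had all 3 Sox1 positive libraries above all 3 Baseline libraries. S100a1, S100a6 and S100a13 were at or near 0 in both groups. The change of S100a16 differed from the median change of the expressed segment genes by -0.01 on the log2 scale. It rested on 5 to 34 counts per Sox1posGP library, and the libraries ran from -1.44 to 0.40 around that median.

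S100 proteins mostly form dimers that open a hydrophobic groove when calcium binds and then dock onto target proteins, among them annexins, cytoskeletal proteins and membrane receptors. S100a10 is an exception that no longer needs calcium and joins annexin A2 in a complex at the plasma membrane. Many members are used as markers of mesenchymal, epithelial or glial cells, and S100b, which lies outside the chromosome 3 cluster, is a widely used astroglial marker.

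RNA was sequenced from 12 libraries in 4 groups of 3. All cells came from mouse embryonic stem cells, labelled as C57BL/6, that carry GFP in 1 copy of Sox1, a transcription factor of early neural stem cells. Baseline are Sox1 negative glial progenitors that were not sorted, and Sox1posGP are sorted Sox1 positive glial progenitors, in which dCas9-VP64, a catalytically dead Cas9 fused to an activator, had been directed to the Sox1 promoter. NSC are unsorted neuroepithelial cells collected early after ES cells were turned to neural fate, and NR are cells of neural rosettes sorted for GFP. The progenitor lines with dCas9-VP64 were clones, and the study describes its replicates as made on different days and in different clonal lines. Which lines gave which library is not given in the sources used here, so clone, sort and Sox1 activation cannot be told apart between Baseline and Sox1posGP.

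Library totals ran from 29046205 to 43095688 counts in NSC, 16707006 to 34594885 in NR, 4939268 to 18351483 in Baseline and 3407066 to 6315574 in Sox1posGP. A count of 3 thus corresponded to 0.0671 to 0.869 CPM (counts relative to the TMM-scaled library size). Sox1 itself was at 4.83 to 6.00 CPM in Baseline, 20.3 to 21.7 CPM in Sox1posGP and 48.6 to 65.0 CPM in NSC. In NR it was at 19.2 CPM or more in replicates 2 and 3 but at 4.62 CPM in replicate 1, below every Baseline library although the NR cells were sorted for the Sox1 reporter. Results for NR are therefore also given without replicate 1. The 5 pluripotency markers fixed for the check (Pou5f1, Nanog, Zfp42, Klf4 and Dppa5a) summed to 1312 to 2484 CPM in NR, against 49.9 to 139 CPM in NSC and at most 44.5 CPM in the progenitors. The 5 astrocyte markers summed to 2476 to 2782 CPM in Baseline and 1158 to 1214 CPM in Sox1posGP, against at most 64.4 CPM in NSC and NR. Nearly all of the progenitor sums was Slc1a3, at means of 2605 CPM in Baseline and 1182 CPM in Sox1posGP. Gfap was also lower in NSC and NR than in Baseline, and Slc1a2 was lower in NR alone. Aqp4 went the other way, at 0.0199 CPM in Baseline, 2.46 in NSC and 1.05 in NR. So did Aldh1l1, at 0.660, 2.14 and 5.79 CPM.

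The genes fall into a proximal and a distal part. The proximal 8 genes lie within 113 kb on GRCm38, from S100a1 (chr3:90511034-90514392, minus strand) to S100a6 (chr3:90612882-90624181, plus strand). S100a11 (chr3:93520488-93526287) and S100a10 (chr3:93555080-93564643), both on the plus strand, lie 2.90 Mb further on and 28.8 kb from each other. S100a1 and S100a13 (chr3:90514435-90524581) are transcribed away from each other, with only 42 bases between their annotated 5' ends.

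The sequences in front of S100a11, which lay furthest above its segment in Sox1posGP, of S100a6, which was nearly silent in the progenitors, and between S100a1 and S100a13, which were both on in NSC and NR and off in the progenitors, are shown from RefSeq on GRCm38.p6, on the plus strand and 5' to 3'. Capitals mark CpG dinucleotides. The first is chr3:93520246-93520487, the second chr3:90612644-90612881 and the third chr3:90514393-90514434.
S100a11: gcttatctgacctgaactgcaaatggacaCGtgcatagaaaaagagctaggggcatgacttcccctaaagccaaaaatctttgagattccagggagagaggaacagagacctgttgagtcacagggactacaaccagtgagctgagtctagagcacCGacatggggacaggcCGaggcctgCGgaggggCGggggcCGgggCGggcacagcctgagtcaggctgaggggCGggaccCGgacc
S100a6: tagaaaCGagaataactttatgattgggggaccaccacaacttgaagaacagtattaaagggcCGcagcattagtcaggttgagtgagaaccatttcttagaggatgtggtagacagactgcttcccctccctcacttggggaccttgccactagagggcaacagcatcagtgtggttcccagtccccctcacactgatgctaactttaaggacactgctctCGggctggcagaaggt
S100a1 and S100a13: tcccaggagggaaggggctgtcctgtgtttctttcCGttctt

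Promoter windows of 300 bases across each transcription start were matched for 8 of the 10 genes, with 12 windows in all. S100a10 and S100a14 had none. The S100a11 window held 15 CpG, the S100a13 window 14 and the S100a1 window 11, the last 2 overlapping, against a median of 7 over 32851 promoter windows. The S100a6 window held 6 CpG and the windows of S100a16, S100a3, S100a4 and S100a5 held 0 to 5. Letters searched on both strands were TATAAA, found in 13.6% of all windows, TGANTCA in 7.81%, GGGCGG in 35.7% and AACAAT in 10.7%. The S100a11 window held 2 copies of TGANTCA, the letters bound by AP-1 factors, and 3 of GGGCGG, the letters bound by Sp1, with neither TATAAA nor AACAAT. These letters were not particular to S100a11. In S100a16, 1 window held 1 copy of the AP-1 letters, 1 of the Sp1 letters and 1 of AACAAT. In S100a3, 1 window held 1 copy of the Sp1 letters and another held 1 of TATAAA. The S100a4 window also held 1 copy of TATAAA, with 1 of AACAAT. The windows of S100a6, S100a1, S100a13 and S100a5 held none of the 4. The part of these letters in the levels of the genes was not tested.

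S100a11, which binds annexin A1 and takes part in membrane repair and keratinocyte growth control, was low in Baseline alone. In Baseline it was at 3.76, 3.07 and 4.17 CPM, and in Sox1posGP at 168, 162 and 171 CPM. In NSC it was at 37.0, 71.2 and 35.0 CPM and in NR at 118, 73.9 and 101 CPM. The 4 groups did not overlap, with the order Sox1posGP, NR, NSC and Baseline, although NSC replicate 2 and NR replicate 2 were close to each other. The log2 fold change of Sox1posGP against Baseline was 5.51 (SE 0.32, n = 3 each), or 45.6-fold, as a description. NSC exceeded Baseline by a log2 fold change of 3.70 (SE 0.31, adjusted p = 1.19e-07, edgeR), and NR exceeded it by 4.74 (SE 0.31, adjusted p = 9.82e-09).

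S100a10, the calcium-independent partner of annexin A2, was the other gene that was higher in Sox1posGP. Baseline libraries held 73.3, 61.2 and 67.8 CPM and Sox1posGP libraries 269, 227 and 257 CPM. NSC libraries held 25.8, 49.5 and 24.6 CPM and NR libraries 86.0, 61.4 and 76.5 CPM. Unlike S100a11, it was therefore already abundant in Baseline, and NSC lay below Baseline in all 3 libraries. The log2 fold change of Sox1posGP against Baseline was 1.89 (SE 0.22), or 3.71-fold. NSC was lower than Baseline by a log2 fold change of -1.03 (SE 0.22, adjusted p = 8.44e-04). NR overlapped Baseline and the difference of 0.14 (SE 0.22) did not pass (adjusted p = 0.571), turning to -0.01 without NR replicate 1 (adjusted p = 0.977).

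S100a16, a widely expressed member whose targets are less well known, was low in every group. It was at 2.39, 2.23 and 2.30 CPM in Baseline and at 1.45, 5.34 and 4.67 CPM in Sox1posGP, where replicate 1 lay below and the other two above all Baseline libraries. In NSC it was at 6.62, 3.52 and 7.38 CPM and in NR at 12.0, 4.65 and 11.04 CPM. The Sox1posGP libraries rested on 5, 34 and 28 counts, and the log2 fold change against Baseline was 0.80 with an SE of 0.49. NSC was higher than Baseline by 1.34 (SE 0.44, adjusted p = 0.0136) and NR by 1.98 (SE 0.44, adjusted p = 9.30e-04), which became 1.72 without NR replicate 1 (adjusted p = 0.00333).

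S100a6, also called calcyclin and known from proliferating and mesenchymal cells, separated NSC and NR from the progenitors. It held 27.4, 7.98 and 22.5 CPM in NSC and 50.1, 11.9 and 44.2 CPM in NR. Baseline held 3, 2 and 0 counts and Sox1posGP held 0, 1 and 4 counts, so no fold is given between them. By the ratio of pooled counts, NSC exceeded Baseline 118-fold (95% counting interval 50.7 to 365) and NR exceeded it 191-fold (81.8 to 589). Such intervals cover counting error only. Since the gene passed the filter on low counts only through NSC and NR, no p is given against Baseline for it or for the next 2 genes. Replicate 2 was the lowest in both groups.

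S100a13, which takes part in the release of FGF1 and interleukin 1 alpha from cells, and S100a1, which binds ryanodine receptors in muscle, had the same on and off pattern at a lower level. S100a13 was at 2.30, 1.93 and 1.68 CPM in NSC and at 4.25, 2.84 and 4.33 CPM in NR, with at most 3 counts in any Baseline library and at most 1 in Sox1posGP. The ratio of pooled counts to Baseline was 11.5 in NSC (95% counting interval 4.87 to 35.9) and 21.6 in NR (9.14 to 66.9). Since it rested on 5 Baseline counts, 3 of them in replicate 2, the fitted log2 fold change of 3.44 in NSC became 4.32 without that library, and that of 4.38 in NR became 5.22. S100a1 was at 1.88, 0.69 and 1.49 CPM in NSC and at 2.59, 1.74 and 2.14 CPM in NR. It had no count in any of the 6 progenitor libraries and was at least 3.32-fold higher in NSC than Baseline and at least 5.28-fold higher in NR, set against a floor of 3 counts per library.

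The other 4 genes did not pass the filter on low counts. S100a4, known from fibroblasts and motile cells, had 47 counts in all, of which 12 and 20 were in NR replicates 1 and 3 and 0 in NR replicate 2. S100a3, a gene of the hair cuticle, had 14 counts, S100a14 had 10, all of them in NSC and NR, and S100a5, known from olfactory neurons, had 1. S100a3 overlaps S100a2 and 2 predicted loci, one of them on the other strand, and S100a4 overlaps one of those, so their few counts are uncertain. In a fit with no filter on low counts S100a4 was called higher in NR than in Baseline (adjusted p = 0.00914) and than in NSC (adjusted p = 0.0130), although NR replicate 2 had no count of it and the groups overlapped. S100a3, S100a5 and S100a14 were not called in that fit in NSC or NR against Baseline or in NR against NSC.

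**Figure D1:**
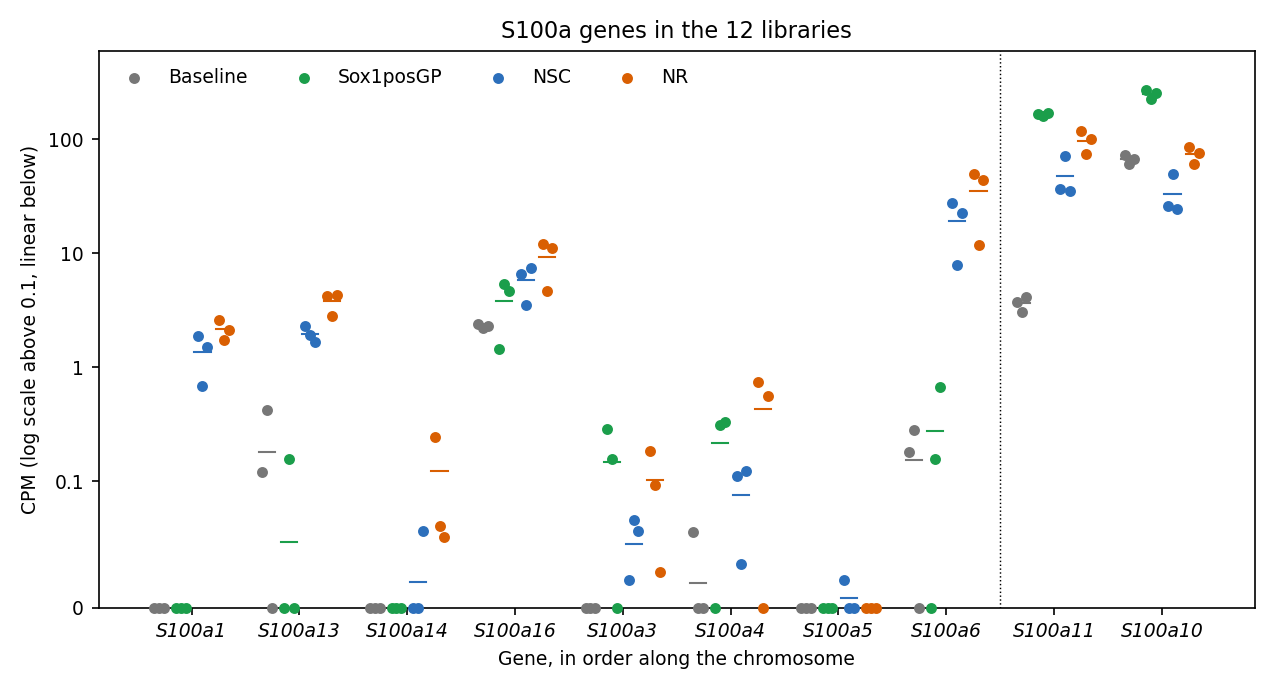
CPM of each of the 10 S100a genes in each library (points) with group means (lines), on an axis that is logarithmic above 0.1 and linear below. The dotted line separates the proximal 8 genes from S100a11 and S100a10, the only 2 whose Sox1posGP libraries all lie above Baseline.

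Counted together, 6 of the 10 genes were tested among 17003. In NSC against Baseline 5 were called higher and 1, S100a10, lower, where a call means an adjusted p under 0.1 and a p under 0.05, while 42.7% of all tested genes were called higher and 32.5% lower. In NR against Baseline 5 were called higher and 0 lower, against 44.2% and 32.8% of all genes. Without NR replicate 1 again 5 were called, with a log2 fold change of 4.54 for S100a11. S100a1, S100a6 and S100a13 passed the filter only through NSC and NR, so they had to differ and their calls add nothing to these counts. In Sox1posGP against Baseline 2 of the 6 had all 3 values above, against 25.7% of all tested genes, with 21.6% of all genes called higher and 22.7% lower. Nothing is read from that count, since the comparison served to choose the genes. In these bulk samples fewer cells of a type cannot be told apart from less RNA per cell.

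NR against NSC shares no library with the comparison that led to the choice. S100a10 was higher in NR by a log2 fold change of 1.17 (SE 0.22, adjusted p = 5.93e-04), S100a11 by 1.03 (SE 0.23, adjusted p = 0.00196) and S100a13 by 0.94 (SE 0.32, adjusted p = 0.0244), and for all 3 the groups did not overlap. S100a1 at 0.64 (SE 0.38, adjusted p = 0.190), S100a6 at 0.87 (SE 0.46, adjusted p = 0.139) and S100a16 at 0.65 (SE 0.37, adjusted p = 0.164) overlapped between the groups and did not pass. The background was 29.5% of genes called higher and 25.8% lower. A fit with the replicate number as a block over all 12 libraries called 5 genes. S100a6 at 0.82 (adjusted p = 0.00195) and S100a1 at 0.72 (adjusted p = 0.0566) were among them. The pairing of NR and NSC was seen in these data and is not stated by the labels. Without NR replicate 1 the 3 calls held, with values of 1.05, 0.87 and 0.85 and adjusted p of 0.00260, 0.00948 and 0.0666. S100a13 lost its call without NSC replicate 3 (0.81, adjusted p = 0.104), and without NR replicate 2 there were 5 calls.

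Markers of other cells moved with several of these genes. The 7 fibroblast and mesenchyme markers, led by Col3a1 and Col1a1, summed to 19.6 to 23.6 CPM in Baseline and 25.8 to 38.9 CPM in Sox1posGP, but to 3430, 929 and 3369 CPM in NSC and 7520, 1407 and 5034 CPM in NR. Replicate 2 of NSC and of NR was thus the lowest in these markers as it was in S100a6, S100a16 and S100a1. For S100a11 and S100a10 replicate 2 was the highest in NSC and the lowest in NR. The 6 markers of non-neural epithelium, led by Krt8, summed to 159 to 256 CPM in NSC with replicate 2 the highest, to 662 to 1169 CPM in NR, again with replicate 2 the highest, and to 2.98 to 3.67 CPM in the progenitors. Between Baseline and Sox1posGP the epithelial sums overlapped. The 5 neural crest markers summed to 4.95 to 7.51 CPM in Baseline and 13.03 to 18.4 CPM in Sox1posGP, with Sox10 at 0 in both groups, and the 5 endothelial markers to 0.626 to 1.97 CPM and 2.00 to 3.45 CPM, with Cdh5 at 0 in both. The mesenchymal sums given above did not overlap between these groups either. Col3a1 went from a mean of 8.13 CPM in Baseline to 17.1 CPM in Sox1posGP without a call (adjusted p = 0.201, edgeR). Col1a1 was level, at 8.30 and 7.93 CPM. Of the neural crest markers, Snai2 went from a mean of 0.113 CPM in Baseline to 5.67 CPM in Sox1posGP, with at most 2 counts in any Baseline library. Tfap2a, Ngfr and Foxd3 were not called there (adjusted p = 0.137, 0.206 and 0.621, edgeR). The endothelial sums rested on few counts, with Kdr, the highest of these markers in Sox1posGP, at 2 to 6 counts per library. The part of these markers in the S100a values was not tested.

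Per kilobase of exon, on which scale genes can be compared with each other, the 10 genes summed to 64.7 RPKM in Baseline (SD 5.57, n = 3), 536 in Sox1posGP (SD 24.4), 143 in NSC (SD 42.2) and 293 in NR (SD 73.2). The composition of that sum changed as well. S100a10 made up 86.1% of it in Baseline (SD 0.69) and S100a11 11.1% (SD 1.21). In Sox1posGP S100a11 reached 60.9% (SD 1.43) and S100a10 38.5% (SD 1.75), and the remaining genes were below 1% in each library. NSC and NR also had S100a11 in the lead, with 63.6% (SD 7.82) and 65.4% (SD 2.15), and S100a10 second, with 18.7% and 21.3%. They differed from Sox1posGP in S100a6, which held 11.2% in NSC (SD 7.12) and 8.27% in NR (SD 3.63) against 0.0371% in Sox1posGP. These shares in Sox1posGP describe the comparison used for the choice.

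**Figure D2:**
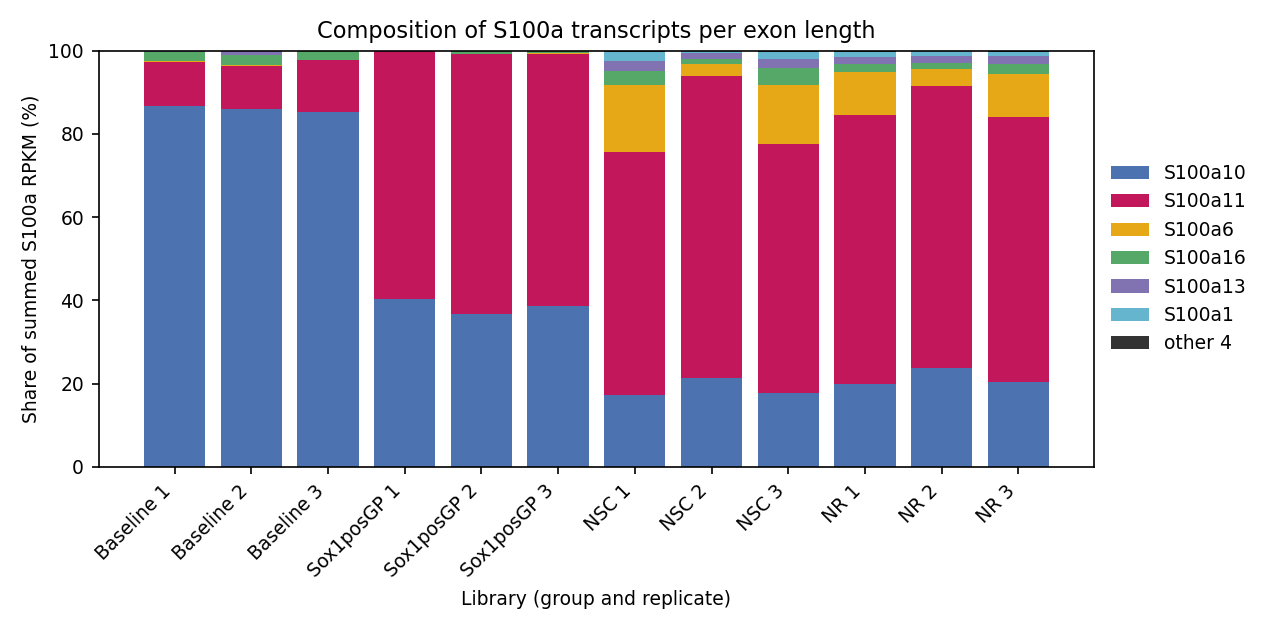
Share of each S100a gene in the summed RPKM of the 10 genes, as stacked bars for each library. S100a10 takes 85.4 to 86.8% in the Baseline libraries, whereas S100a11 takes the largest share in all other libraries, and the band of S100a6 is visible in NSC and NR alone.

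The rise in Sox1posGP was then set against that of the surrounding chromosome. Among the genes with a mean above 3 log2 CPM, 146 lie on chromosome 3 from 80 to 100 Mb and are no S100 gene, and 9191 lie on other chromosomes. In Sox1posGP against Baseline the median of the 146 exceeded the median outside by 0.87 on the log2 scale, and each library showed it, with 0.87, 0.84 and 0.89 against -0.02 to 0.03 in the Baseline libraries. All 3 Sox1posGP values lay above all 3 Baseline values in 77.4% of the segment genes (113 of 146). The share was 25.7% over all 17003 tested genes, which include genes below 3 log2 CPM, so the shares are not like for like. The segment was chosen for its rise in this comparison, so its share is a description. The shift began within the segment, at -0.28 from 80 to 85 Mb (9 genes), and was 0.71 from 85 to 90 Mb (65 genes), 1.05 from 90 to 95 Mb (23 genes) and 1.08 from 95 to 100 Mb (49 genes). Over all of chromosome 3 it was 0.09. NSC and NR showed no such rise, with shifts of -0.24 and -0.28 against Baseline.

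Relative to the segment's own median change of 0.81, S100a16 differed by -0.01 and ranked 74th from the top, in the middle of the 146 genes. S100a10 exceeded the segment by 1.08 and ranked 7th. S100a11 exceeded it by 4.70 and ranked above all 146 genes. That ranking covers only genes with a mean above 3 log2 CPM, a level that S100a16 itself did not reach. Among genes of the segment below it, Tchh went from 0 counts in Baseline to a mean of 7.78 CPM in Sox1posGP. Lor, also below it, had a log2 fold change of 4.56 (SE 0.52). By library, S100a11 exceeded the segment by 4.68, 4.66 and 4.68 and S100a10 by 0.97 to 1.19. S100a16 gave -1.44, 0.40 and 0.15, so replicate 1 went against the other two. With library sizes scaled to the segment genes the log2 fold change of S100a16 turned to -0.19, and S100a10 and S100a11 kept 0.89 and 4.51.

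Since the segment was slightly lower in NSC and NR, the same subtraction raised the values there. S100a11 exceeded the segment by 3.99 in NSC and 5.10 in NR, S100a16 by 1.62 and 2.35, and S100a10 differed from it by -0.74 and 0.50. S100a11 was thus far from its segment in all 3 groups set against Baseline, by 3.99 to 5.10, whereas S100a10 lay above its segment in Sox1posGP and NR and below it in NSC. In NR against NSC the segment shift was 0.007, and the 6 tested genes ranked between 3rd and 11th from the top of the 146. S100a1, S100a6, S100a13 and S100a16 lay below the mean level set for the 146, so their ranks are not like for like. S100a1, S100a6 and S100a16 were not called in that comparison.

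**Figure D3:**
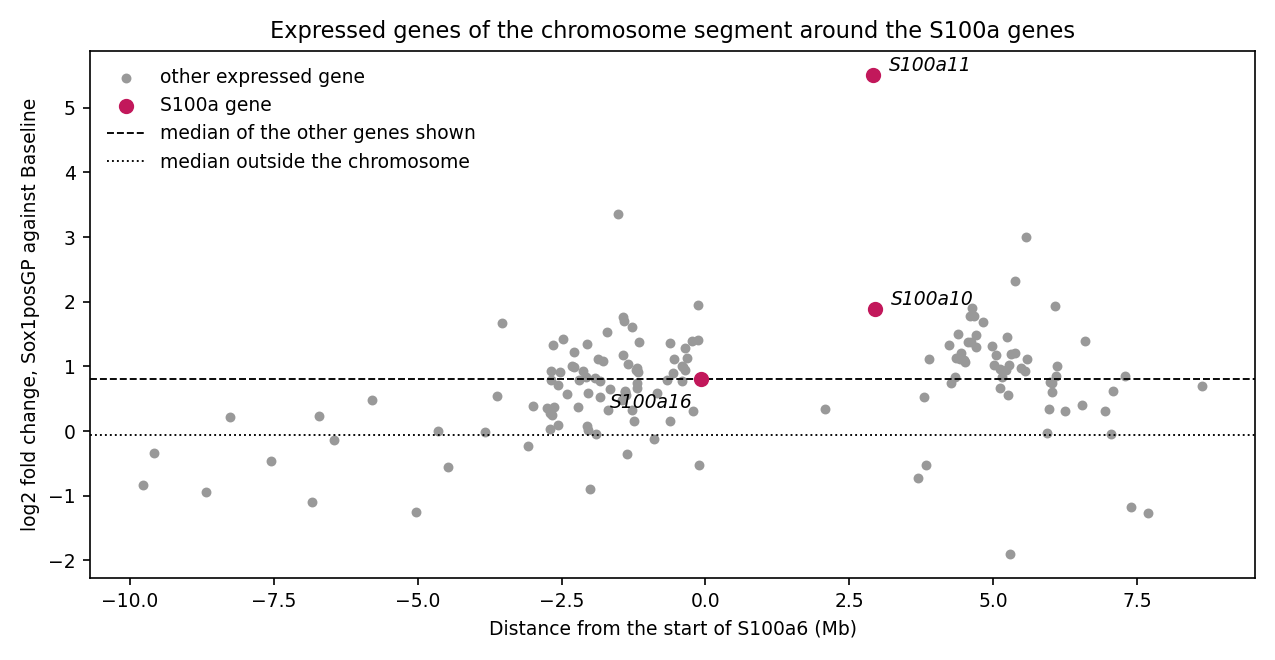
Log2 fold change of Sox1posGP against Baseline for the 146 expressed genes of the segment (grey) and the 3 S100a genes that could be measured in both groups (red), by distance from the start of S100a6 in Mb. S100a11 at 5.51 stands above every other point, S100a10 at 1.89 is near the top, and S100a16 at 0.80 lies on the median of the segment (dashed), which is above that of the other chromosomes (dotted).

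**Figure D4:**
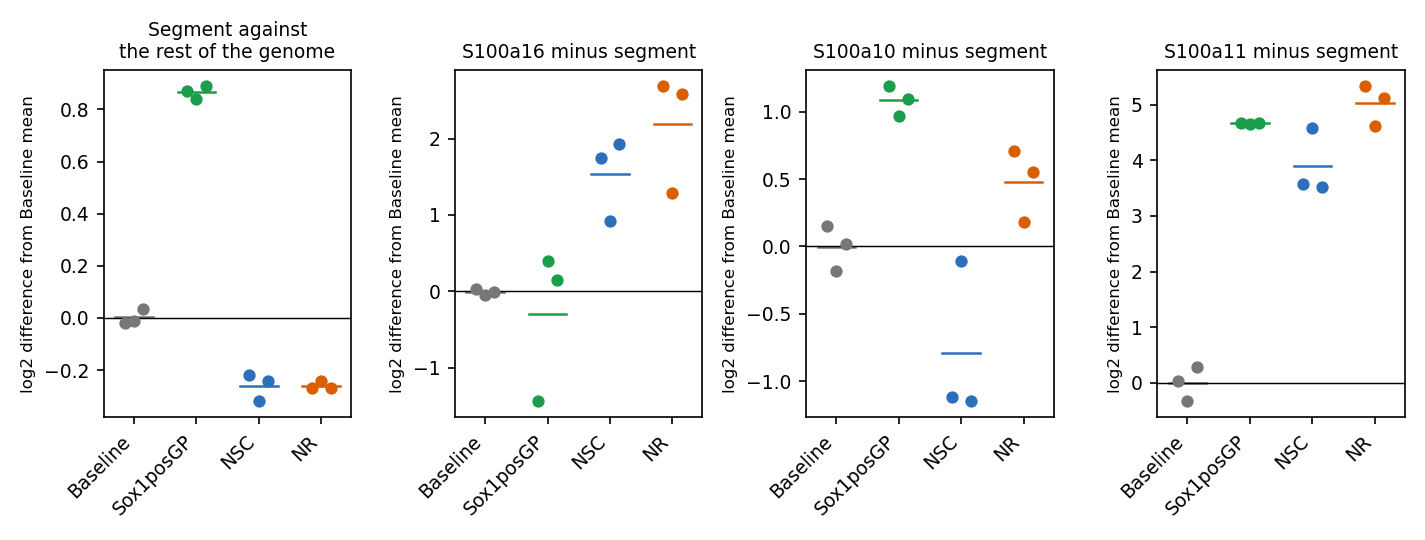
Each library's log2 difference from the Baseline mean, for the segment against genes outside the chromosome and for S100a16, S100a10 and S100a11 after subtraction of the segment (points, libraries; lines, group means). S100a11 lies between 3.52 and 5.34 in the 9 libraries outside Baseline, and S100a10 lies above 0 in Sox1posGP and NR and below 0 in NSC.

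The protein-coding genes within 100 kb of a member with a mean above 3 log2 CPM over all libraries were all on the proximal side. Tchh, within that distance of S100a11 but below that level, is given in the next paragraph. Snapin, a SNARE-associated protein 20.0 kb from S100a1, had a log2 fold change of 1.95 (SE 0.09) in Sox1posGP against Baseline. Ilf2, an RNA-binding protein 22.7 kb away, had 1.41 (SE 0.07), and Ints3, a subunit of the Integrator complex 77.4 kb away, had 0.31 (SE 0.09). Chtop, a chromatin target of PRMT1 that lies 1.54 kb from S100a1, had -0.52 (SE 0.08). The neighbours therefore spread over both directions, and S100a1 next to Chtop had no count in either group. In NSC against Baseline the 4 genes ran from -0.54 to 0.36, while S100a1 went from 0 counts to between 20 and 84.

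The interval between S100a6 and S100a11 holds the epidermal differentiation complex, whose genes encode proteins of the skin barrier. Of 19 of its genes in the table, 17 were too low to test. Tchh, the hair follicle protein trichohyalin, ends 71.4 kb before S100a11. It had 0 counts in all Baseline libraries, and was at 9.26, 7.07 and 7.01 CPM in Sox1posGP, at means of 4.08 CPM in NSC (SD 0.726, n = 3) and 4.21 CPM in NR (SD 1.13, n = 3). Sox1posGP was thus the highest group, and NSC and NR overlapped. Lor, encoding loricrin, was at 0.0597 to 1.04 CPM in Baseline, 8.01 to 11.6 CPM in Sox1posGP, 1.76 to 1.92 CPM in NSC and 0.985 to 1.39 CPM in NR. It was called higher than Baseline in NSC (adjusted p = 0.00230) and in NR (adjusted p = 0.0156), where the groups overlapped.

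S100b had the opposite distribution to S100a6. It was at 14.4, 14.1 and 17.7 CPM in Baseline and at 19.1, 17.3 and 18.8 CPM in Sox1posGP, and at no more than 0.305 CPM in NSC and NR. It was lower in NSC than in Baseline by a log2 fold change of -5.84 (SE 0.27) and lower in NR by -6.54 (SE 0.30). Since S100b passed the filter on low counts only through the progenitors, no p is given for these differences. In Sox1posGP against Baseline it changed by 0.26 (SE 0.21, adjusted p = 0.371) and the groups overlapped. Of the other S100 genes, S100g and S100a7a had at most 6 counts in a library, S100a8 had 1 count in 1 Sox1posGP library, and S100a9, S100z and S100a2 had none.

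Among 26 listed partners and receptors of S100 proteins 24 were tested. In NSC against Baseline 13 were called higher and 7 lower, beside 42.7% and 32.5% of all tested genes, with a list median of 0.42 beside 0.20. In NR 15 were higher and 7 lower, beside 44.2% and 32.8%, with a median of 0.98 beside 0.19. In NR against NSC 15 were higher and 3 lower, beside 29.5% and 25.8% (median 0.54 beside 0.01), and in Sox1posGP against Baseline 8 were higher and 4 lower, beside 21.6% and 22.7% (median 0.16 beside 0). Anxa2 and Anxa1, the annexin partners of the 2 distal genes, were not called in Sox1posGP against Baseline, unlike others of the list. In the edgeR test Anxa5 was higher there by 0.95 (SE 0.12, adjusted p = 3.71e-05) and Rad54b by 0.58 (SE 0.15, adjusted p = 0.00782). Kcnk3 went from 0.269 to 1.39 CPM, with at most 3 counts in any Baseline library. Anxa2, the partner of S100a10, was at 1.28 CPM in Baseline and 1.47 CPM in Sox1posGP, a log2 fold change of 0.36 (SE 0.43, adjusted p = 0.566), while it reached 87.9 CPM in NSC and 114 CPM in NR. Anxa1, the partner of S100a11, was at 1.51 CPM in Baseline and 2.30 CPM in Sox1posGP (0.58, SE 0.54, adjusted p = 0.448), and at 65.6 CPM in NSC and 98.3 CPM in NR.

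Ranked by the mean of the log2 fold changes in NSC and NR against Baseline, the partners with the largest rises were Anxa11, Anxa2, Dysf, Anxa1 and Ryr2. Anxa2 had log2 fold changes of 6.16 in NSC (adjusted p = 1.12e-10) and 6.53 in NR (adjusted p = 6.02e-11), and Anxa1 had 5.39 (adjusted p = 1.09e-08) and 5.97 (adjusted p = 3.84e-09). The other 3 held at most 3 counts in any Baseline library and are given by level. Anxa11, an annexin that binds S100a6, was at a mean of 3.54 CPM in NSC and 26.7 CPM in NR, Dysf, the membrane repair protein dysferlin, at 4.36 and 9.37 CPM, and Ryr2, a ryanodine receptor, at 1.14 and 8.41 CPM. Dysf and Ryr2 were also higher in Sox1posGP than in Baseline. Dysf was at 2.40 against 0.113 CPM, with 8 to 18 counts per Sox1posGP library. Ryr2 was at 1.67 against 0.338 CPM, with 5 to 11 counts. Anxa11 was at 0.0523 against 0.116 CPM. The largest falls by the same mean were those of Fgf1, with -3.76 and -2.43, Tlr4, a receptor of the innate immune system, with -2.88 and -2.96, Anxa6 with -2.66 and -1.65, Syt1, a synaptic vesicle calcium sensor, with -1.05 and -2.09, and the plasminogen receptor gene Plgrkt with -0.94 and -1.21, all with an adjusted p of at most 3.45e-04. Fgf1, which leaves cells with S100a13, was higher in Sox1posGP than in Baseline by 1.88 (SE 0.29, adjusted p = 1.72e-04), while S100a13 itself had 1 count in the 3 Sox1posGP libraries.

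The genes outside the segment whose log2 CPM was most like that of each tested member over the 12 libraries were Mcpt8 for S100a1 (Pearson's r 0.999), Col8a1 for S100a6 (0.995), Flt4 for S100a13 (0.989), Samm50 for S100a10 (0.988), Nqo2 for S100a11 (0.993) and Unc13c for S100a16 (0.958). These are descriptions over 4 groups that differ in depth, and likeness was common for the genes that are off in both progenitor groups. Of 16642 genes, 2544 had an r above 0.9 with S100a1, 1966 with S100a6 and 1525 with S100a13, against 141 with S100a11, 140 with S100a10 and 23 with S100a16. Nqo2 followed S100a11 with a smaller range, at 5.46 CPM in Baseline, 26.8 CPM in Sox1posGP, 17.4 CPM in NSC and 23.7 CPM in NR. Samm50 likewise ran from 118 CPM in NSC to 231 CPM in Sox1posGP, with 152 CPM in Baseline and 147 CPM in NR, the order of S100a10 except that its Baseline mean lay above its NR mean.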

How the data were processed

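PicoPure RNA was amplified by SMART-Seq v4, which does not mark strand. The authors deposited whole-number counts per Ensembl gene, not normalized, for 12 libraries. The submitters' processing notes name STAR 2.6, RSEM 1.1.14 and mm10, without saying how reads shared by similar or overlapping genes were assigned. All columns were used. Symbols, coordinates and exon lengths came from GENCODE M21 on GRCm38, which gave a symbol to 45143 of 45706 genes. The 563 others held 0.124% of the counts.

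Groups and replicate numbers came from the sample titles. Counts were scaled by TMM and filtered with filterByExpr, and glmQLFit and glmQLFTest of edgeR 4.0.16 (R 4.3.3, limma 3.58.1) fitted the 12 libraries together without a block. Prior counts were 0.125 (fold changes) and 2 (log2 CPM), and Benjamini-Hochberg adjustment covered 17003 genes. A call is an adjusted p under 0.1 and a p under 0.05. Standard errors follow from the fold change and its F statistic. RPKM was computed from the counts and the union of exons. The fits were tested on simulated data. Python 3.11.15 with matplotlib 3.10.9, pandas 2.3.3 and scipy 1.17.1 gave tables and plots.

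Same-numbered libraries of NR and NSC deviated together (mean correlation 0.34, lowest 0.23, against -0.15 for other numbers), so the blocked fit is given beside that comparison. The block was fitted over all 12 libraries, so it also placed the same replicate effect on Baseline and Sox1posGP. For the other comparisons the mean was between -0.04 and 0.03 and the numbers were not taken as pairs.

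The genes, lists, marker sets and tests were chosen with earlier results of these data known. Genes named beside the 10 are Sox1, the expressed protein-coding genes within 100 kb of a member, the most similar gene outside the segment for each tested member, the other S100 genes, and the 5 partners with the largest changes each way among those called alike in NSC and NR without overlap. Anxa1, Anxa2, Anxa5, Anxa11, Dysf, Ryr2, Rad54b and Kcnk3 in Sox1posGP, Fgf1 there, Tchh and Lor were singled out after their values were seen. P values treat the libraries as separate replicates. Alternatives were the Wald test of DESeq2 1.42.0, scaling by its size factors or the upper quartile, other filters, thresholds and segments, thinning of each library to 3407066 counts, the block and the omission of each replicate.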

Additional observations from a re-analysis of the deposited data

Results flagged for a closer look

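NR and NSC differed in their change against the shared Baseline libraries for 3 of the 6 tested genes, by the test of the difference itself, which equals NR against NSC. The difference was 1.17 on the log2 scale for S100a10 (SE 0.22, adjusted p = 5.93e-04, edgeR), 1.03 for S100a11 (SE 0.23, adjusted p = 0.00196) and 0.94 for S100a13 (SE 0.32, adjusted p = 0.0244), with all 3 NR libraries above all 3 NSC libraries for each gene. For S100a10 the 2 changes lay on different sides of 0, at -1.03 in NSC and 0.14 in NR, the second of which did not pass. A blocked fit on replicate number over all 12 libraries called 5 of the 6, adding S100a6 (0.82, adjusted p = 0.00195) and S100a1 (0.72, adjusted p = 0.0566). The pluripotency and epithelial marker sums given above did not overlap between NR and NSC, whereas the mesenchymal sums did, and the part of these markers was not tested.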

How the results depend on the processing

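Of 779 alternative values 743 kept their direction and their side of the threshold. A filter of at least 10 counts in every library left S100a10 and S100a11 alone, with 2 calls in NSC against Baseline and 1 in NR against Baseline. Thinning every library to the smallest total left 3 calls in NR against Baseline, since fewer genes passed the filter. In NR against NSC the 3 calls became 6 with no filter, S100a4 among them, 5 with the replicate block and 0 with a fold change over 4, and ran from 2 to 5 when 1 replicate was left out. With no filter NR against Baseline also had 6 calls, the added one being S100a4. The block changed no other number of calls by over 1.5 times. S100a10 in NR against Baseline ran from -0.00844 to 0.267 on the log2 scale without 1 replicate and was not called under any alternative. Segment shifts from 85 to 95 Mb were -0.38 in NSC, -0.37 in NR, 0.0621 in NR against NSC and 0.83 in Sox1posGP, and over all of chromosome 3 they were -0.103, -0.183, -0.0343 and 0.0869. Without 1 replicate the shift ran from -0.30 to -0.24 in NR against Baseline and from -0.0251 to 0.00897 in NR against NSC, where it changed sign. With library sizes scaled to the segment, S100a16 in Sox1posGP turned to -0.19. The causes were not tested. Depth limits S100a1, S100a6 and S100a13 in the progenitors and S100a3, S100a5 and S100a14 everywhere.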
